A study of Homo sapiens with 3 samples.

Results

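The comparison described here sets 1 RNA-seq library of DU145 cells carrying the second PD-L1 short hairpin RNA against 1 library of the same cells carrying the first. Genes were included where the counts of the pair of libraries summed to at least 100, which kept 12252 of the 58735 genes in the deposited tables. The study asked what PD-L1 does in castration-resistant prostate cancer, and sequenced 3 libraries: a control, the library labelled Knockdown1 and the library labelled Knockdown2. All 3 came from DU145, a human cell line established from a metastasis of prostate carcinoma. Per the study's methods, the knockdown lines were made by lentiviral infection with pLKO.1 carrying a hairpin against PD-L1, with the empty pLKO.1 vector as the control, followed by selection with puromycin and culture in a lower dose of it. Whether the cells of the sequenced control had been infected and selected is not said for that library. With 1 library per hairpin, no replicate check exists: the values below compare these libraries and not the hairpins in general, no test was run, and each interval covers counting error only. The reads were amplified by PCR and carry no molecular identifiers, so they are not independent, and the intervals are a lower limit of the error. Fewer cells of a kind and less RNA per cell cannot be told apart in such bulk libraries.

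A short hairpin RNA is cut by Dicer into a small duplex, 1 strand of which guides an Argonaute protein to matching messenger RNAs. Full matches are sliced. Partial matches in 3′ untranslated regions (3′ UTRs), chiefly to the start of the guide strand, called its seed, can also lower a messenger RNA, in the manner of a microRNA. A pair of hairpins against 1 gene share their intended target, while their seeds differ. PD-L1, the product of CD274, is a membrane ligand that restrains T cells through the receptor PD-1.

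CD274 itself hardly differed between the libraries. It held 204, 213 and 224 counts in the order control, Knockdown1, Knockdown2. The ratio of CPM (counts scaled to the total of the library), Knockdown2 over Knockdown1, was 0.982 with a 95% exact interval from 0.810 to 1.19. CD274 RNA was therefore lower than the control in neither library labelled as a knockdown, and the names of the libraries are used below as labels only. The study states that its stable lines were checked by western blotting, and it shows PD-L1 protein in its knockdown DU145 cells. The counts here measure RNA and not protein. In the same order, the total counts were 14733088, 14738298 and 15786457, so that 3 counts, the most a count of 0 allows, correspond to 0.190 to 0.204 CPM. Of 8 epithelial markers, 6 reached the count minimum, with KRT5 at 0 in every library, and their summed level was 2195 CPM in the control, 2395 in Knockdown1 and 2431 in Knockdown2. Of the markers of prostate luminal cells, KLK2, KLK3, FOLH1, HOXB13 and TMPRSS2 were at 0 in all 3 libraries.

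Most genes were close to equal. The median log2 ratio over the 12252 genes was -0.00 with an SD of 0.23, and 5% of genes lay below -0.37 and 5% above 0.36. For 7919 genes (64.6%) the counting interval of the ratio included 1. A gene was called higher where its CPM was at least 1.5-fold higher in the library labelled Knockdown2 and its interval lay above 1, and lower by the mirrored rule. By that rule 136 genes (1.11%) were higher and 133 (1.09%) lower. An interval above 1 at any fold was found for 2201 genes (18%) and one below 1 for 2132 (17.4%). These shares over all genes stand beside those of the gene lists below. Intervals narrow as counts rise, so well-counted genes pass at smaller ratios than poorly counted ones. The shares were not matched for counts, and a list of well-counted genes can exceed them with small differences. At least 2-fold, 17 genes were higher and 11 lower. Near the count limit the ratios were wide on both sides: the 79 genes with 100 to 104 summed counts had an SD of 0.42 around a median log2 ratio of 0.01, and the 123 left out with 95 to 99 an SD of 0.42 around -0.01.

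**Figure D1:**
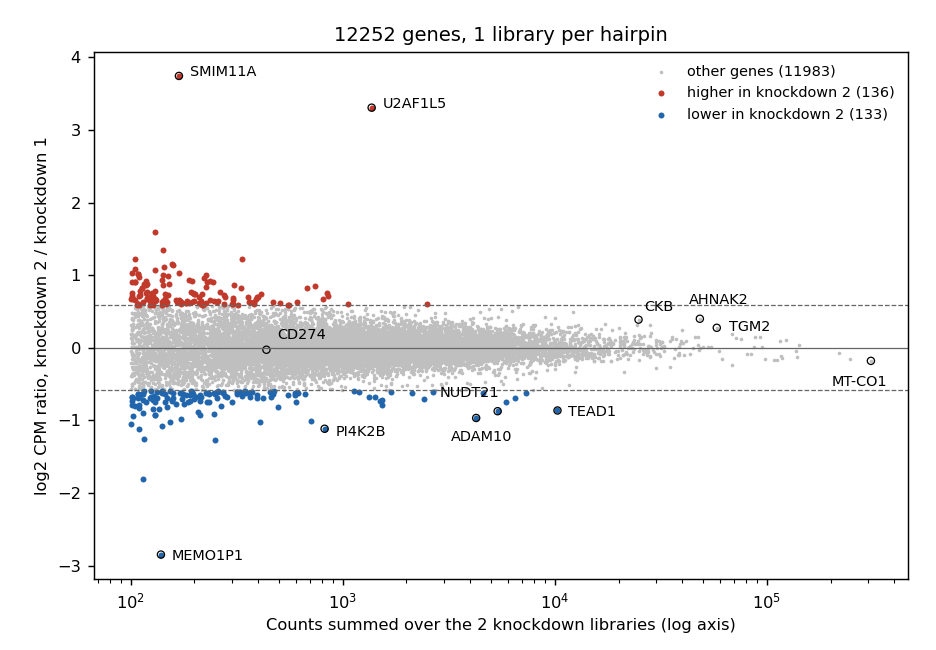
Each point is 1 of the 12252 genes, with the counts summed over both knockdown libraries on a log axis and the log2 CPM ratio of Knockdown2 to Knockdown1 on the other. Red and blue mark the 136 higher and 133 lower genes, dashed lines 1.5-fold, and circles the genes named; at the well-counted end the coloured points lie mostly below 0.

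The called genes were mostly poorly counted. The median summed count was 169 for the higher genes and 207 for the lower, against 1046 for all genes. Among the 3835 genes with at least 2000 summed counts, a limit chosen after the values were seen, 10 were lower and 1 was higher. Protein-coding genes made up 104 of the higher and 102 of the lower, out of 11303 measured, and other gene types 32 and 31 out of 949. The place of the control was counted for the called genes only. Of the 136 higher genes, the control level lay between the knockdown libraries for 99, above both for 10 and below both for 27; of the 133 lower genes, it lay between them for 92, above both for 34 and below both for 7. The control was nearer to the library labelled Knockdown1 for 81 of the higher and 87 of the lower genes. The called genes were picked for a wide gap between the knockdown libraries, and that choice itself favours a control level between them. Genes not called were not counted in this way, so whether any of these shares is unusual is not known.

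The largest difference among protein-coding genes was in SMIM11A, which encodes a small integral membrane protein, at chr21:34375480-34407866 (GRCh38). Its counts were 29, 11 and 158 in the order control, Knockdown1, Knockdown2, which is the order kept below, a ratio of 13.4 (7.29 to 27.4). U2AF1L5, at chr21:6484623-6499261, followed with 440, 118 and 1252 counts, a ratio of 9.91 (8.20 to 12.1). For both genes the control lay between the others. Both have near-identical copies: 93.2% of the 31-base words of SMIM11A recur in SMIM11B, which held 0, 0 and 1 counts, and 96.2% of those of U2AF1L5 recur in U2AF1, the small subunit of the splicing factor that reads the 3′ splice site, which held 100, 101 and 114. Reads could be divided between such copies by the counting, so each gene alone is uncertain. Summed with U2AF1, the counts were 540, 219 and 1366, and the ratio was 5.82 (5.05 to 6.75). How reads that match both copies were counted is not given, so the sum may not hold every read of the pair.

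The other protein-coding genes at the top of the higher side were low in counts. RRAD, a small GTPase of the RGK group, had 48 counts in the control, 38 in Knockdown1 and 104 in Knockdown2, a ratio of 2.56 (1.75 to 3.81). TGFB3, a TGF-beta ligand, had 68, 45 and 97, a ratio of 2.01 (1.40 to 2.93). For RRAD the control sat with Knockdown1, whereas for TGFB3 it lay midway. CORO1A, an actin-binding coronin best known from leukocytes, had 48, 48 and 102 counts, a ratio of 1.98 (1.39 to 2.86). TTYH1, a membrane protein of the tweety family, had 36, 32 and 73, a ratio of 2.13 (1.39 to 3.34). In both of these the control equalled Knockdown1 within counting error. AC007325.4, on a scaffold outside the assembled chromosomes, had 33, 31 and 100 counts (ratio 3.01). THAP8, TMEM121, FBXW9, VSTM4, IQCN, CRYL1, PIGBOS1 and PRSS22 completed the 15 largest, with ratios from 1.90 for PRSS22, a serine protease, to 2.33 for THAP8, a THAP-domain protein. PIGBOS1 overlaps PIGB on the other strand, TGFB3 overlaps IFT43 in the same way, and the strand setting of the counting is not given in the sources used here. The noncoding genes highest in Knockdown2 were AP001000.1 (64, 96 and 239 counts, a pseudogene with 79.1% of its words in DNAJB6), GOLGA2P7, LINC01138, RPL13P5 and AL121906.2. With DNAJB6 added, the ratio for AP001000.1 became 0.953 (0.903 to 1.01).

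The lower side held better-counted genes. TEAD1, the DNA-binding partner of the Hippo pathway's coactivators YAP and TAZ, had 7609, 6488 and 3820 counts. Its ratio was 0.550 (0.528 to 0.572), and the library labelled Knockdown2 stood apart from both others. ADAM10, the membrane protease that sheds Notch, cadherins and many other surface proteins, had 2992, 2753 and 1509 counts, a ratio of 0.512 (0.480 to 0.545). NUDT21, a subunit of the cleavage factor that sets where messenger RNAs end, had 3707, 3396 and 1986, a ratio of 0.546 (0.516 to 0.577). PI4K2B, a phosphatidylinositol 4-kinase, had 610, 550 and 272 counts, a ratio of 0.462 (0.398 to 0.535). In all 4 the control and Knockdown1 were nearer to each other than to Knockdown2, which was low.

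Several more well-counted genes, named here after their values were seen, were also low in the library labelled Knockdown2. GLO1, the glyoxalase that detoxifies methylglyoxal, had 3828 counts in the control, 3599 in Knockdown1 and 2308 in Knockdown2 (ratio 0.599, 0.568 to 0.631). ARHGAP29, a RhoA GTPase-activating protein, had 4202, 3892 and 2586 (0.620, 0.590 to 0.652). VDAC1, the voltage-dependent channel of the outer mitochondrial membrane, had 4079, 4320 and 3003 (0.649, 0.619 to 0.680). The control was above the library labelled Knockdown2 in each. ZMPSTE24, the protease that matures prelamin A, had 1148, 945 and 584 counts (0.577, 0.520 to 0.640). SPTLC1, a subunit of the enzyme that starts sphingolipid synthesis, had 1472, 1454 and 955 (0.613, 0.565 to 0.666). ANKFY1, an endosomal Rab5 effector, had 2850, 2693 and 1874 (0.650, 0.612 to 0.689). These genes belong to different functions, and no list below groups them.

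The remaining lower genes of the ranking were poorly counted and less evenly placed by the control. ITGBL1 had 58 counts in the control, 80 in Knockdown1 and 36 in Knockdown2, a ratio of 0.420 (0.275 to 0.630). CXCL8, the neutrophil chemokine interleukin-8, had 117, 158 and 90, a ratio of 0.532 (0.406 to 0.693). In both the control lay between the libraries. RASL10B, a Ras-like GTPase, had 54, 112 and 61 counts, a ratio of 0.508 (0.366 to 0.701), so that here Knockdown1 was the library apart. ZNF669 had 267, 267 and 141 counts, a ratio of 0.493 (0.399 to 0.607). ZNF670, ZNF577, ZSWIM3, CEP162, FANCF, RASGRF2 and ZBED2 had ratios from 0.472 for ZNF670 to 0.542 for ZBED2. NOMO3, with 460, 465 and 247 counts, shares 60.4% of its words with NOMO1, and the counts summed over both gave a ratio of 0.889 (0.835 to 0.947). The 3 lowest noncoding genes were pseudogenes that stood apart in Knockdown1: MEMO1P1 had 21 counts in the control, 121 in Knockdown1 and 18 in Knockdown2 (ratio 0.139, 0.0796 to 0.229), SNRPGP10 had 19, 88 and 27, and TCEA1P2 had 86, 173 and 77. Their parent genes were counted alongside. Summed with MEMO1 the ratio was 0.596 (0.477 to 0.743), summed with SNRPG it was 1.28 (1.16 to 1.41), and summed with TCEA1 it was 0.918 (0.878 to 0.959). Of 268 called genes whose transcripts were compared, 57 shared at least 20% of their words with another gene. Genes not called were not compared, so whether this share is unusual is not known.

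**Figure D2:**
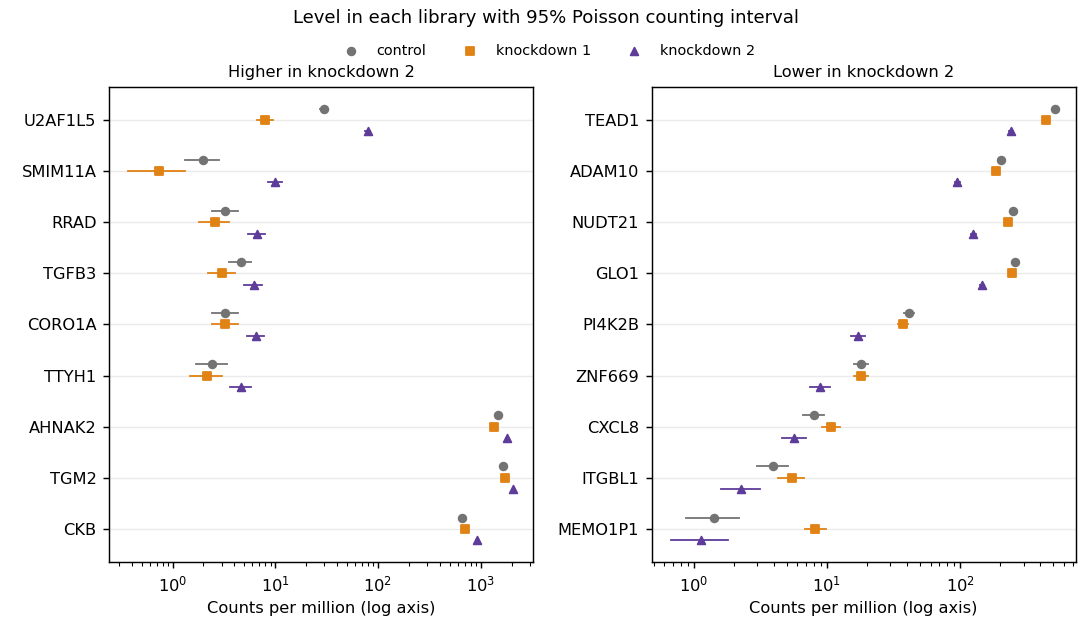
CPM on a log axis in the control (circles), Knockdown1 (squares) and Knockdown2 (triangles) for 9 genes higher and 9 lower in Knockdown2, with 95% Poisson counting intervals. TEAD1, ADAM10, NUDT21, GLO1 and PI4K2B are nearly level in the control and Knockdown1 and low in Knockdown2, while MEMO1P1 is high in Knockdown1 alone.

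Relative to counting error, the 10 genes farthest from equality were MT-CO1, AHNAK2, TEAD1, MT-ND4, U2AF1L5, TGM2, NUDT21, HSP90AA1, CKB and ADAM10. AHNAK2, a giant PDZ-domain protein, had 21917 counts in the control, 20040 in Knockdown1 and 28330 in Knockdown2, a ratio of 1.32 (1.30 to 1.34). TGM2, tissue transglutaminase, had 24399, 25306 and 32818, a ratio of 1.21 (1.19 to 1.23). CKB, brain-type creatine kinase, had 9705, 10348 and 14505, a ratio of 1.31 (1.28 to 1.34). In these 3 the library labelled Knockdown2 was above both others, but under 1.5-fold. HSP90AA1, the inducible HSP90 chaperone, had 36504, 35773 and 32555 counts, a ratio of 0.850 (0.837 to 0.862).

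What the lower genes share in sequence was examined because seed matches lie in 3′ UTRs. All 16384 heptamers were looked for, on the transcript strand only, in the longest annotated 3′ UTR (GENCODE 29) of 11277 protein-coding genes with at least 100 counts, and 16088 of them were present in at least 100 genes. For the ranking, the medians of 20 classes of 3′ UTR length and 20 of its GC content were subtracted from the log2 ratios. The values were then held within 1 log2 unit of their median and centred on their mean. Heptamers were ranked by the mean of these values over the genes holding them, times the square root of the number of genes. The scan was made after the ratios were seen, and the rank is a description with no test. The heptamer ranked lowest for Knockdown2 over Knockdown1 was TGGTAGA. The next were GTGGTAG and GGTAGAA, each of which overlaps it by all but 1 letter. Its reverse complement TCTACCA ranked 3772. Ranked by the adjusted median difference alone, which gives rare heptamers more room, TGGTAGA ranked 7 of 16088.

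TGGTAGA was present in the 3′ UTR of 1473 genes, 13.1% of those scanned. Among the 102 called lower it was present in 32 (31.4%), and among the 103 called higher in 4 (3.88%). With at least 1000 summed counts, a limit set after the values were seen, it was present in 13 of the 18 lower genes (72.2%) and in 14.2% of all 6194 such genes. TGGTAGA was chosen by these same ratios, so its shares among called genes restate that choice and are no separate evidence. The same holds for the values by copies, flanking bases and 3′ UTR length given below. TEAD1, VDAC1, ARHGAP29, NUDT21, ADAM10, ATXN1L, PRKAR2A and ZMPSTE24 were among the 13, and PI4K2B, below 1000 counts, also held a copy. GLO1, ANKFY1 and SPTLC1 held none in the longest annotated 3′ UTR. Of the best-counted lower genes that hold it, the first copy in the 3′ UTR is shown here with its surroundings, with the heptamer in capitals, followed by the copy in the coding sequence of CD274, the intended target (5′ to 3′, sequence from GENCODE 29):
TEAD1: tgtttctaattgTGGTAGAaaatattgaga
VDAC1: aggtcctttcagTGGTAGActcggggagaa
ARHGAP29: ggtaatactgaaTGGTAGAatgttttgata
NUDT21: gtagaataaatgTGGTAGAaaagttttttt
ADAM10: acttcttgagtgTGGTAGActttggaacat
ATXN1L: ttttcttttttgTGGTAGAagggcaggagg
CD274: aggacctatatgTGGTAGAgtatggtagca

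In GRCh38 these windows lie at chr11:12937545-12937574 on the plus strand for TEAD1, chr5:133972552-133972581 on the minus strand for VDAC1, chr1:94173690-94173719 on the minus strand for ARHGAP29, chr16:56432620-56432649 on the minus strand for NUDT21, chr15:58595727-58595756 on the minus strand for ADAM10 and chr16:71852237-71852266 on the plus strand for ATXN1L. Each is in the last exon of its transcript. The window of CD274 lies at chr9:5457100-5457129 on the plus strand, in exon 3 of 7 of the coding transcript ENST00000381577, where the heptamer starts at base 86 of a coding sequence of 870 bases. Of 5 annotated CD274 transcripts, 2 hold it. The study's methods give the sequence of 1 hairpin, without saying which library carries it. No hairpin sequence was compared here, and whether the heptamer matches the seed of either was not tested.

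Over all genes holding TGGTAGA the difference was small. The median log2 ratio was -0.07 for the 1473 genes with it and 0.01 for the 9804 without. An interval below 1 was found for 32.2% of the genes with it, against 15.5% of those without, and an interval above 1 for 11.4% against 19.7%. The median was -0.07 with 1 copy (1254 genes), -0.09 with 2 copies (185 genes) and -0.20 with 3 or more (34 genes, of which 17 had an interval below 1 and 0 an interval above 1). The median 3′ UTR length rose with the copies, from 3226.5 to 5211 and 7407.5 bases, and after the subtraction of the classes of length and GC content the medians were -0.03, -0.01 and -0.11, so that the order by copies was lost. Genes holding it had longer 3′ UTRs (median 3492 bases against 1540.5) with lower GC content (40.4% against 44.4%), and both moved with the ratio. After that subtraction the medians for genes with and without it were -0.03 and 0.00. The genes were also split by 3′ UTR length into 4 classes of equal size. The median with the heptamer minus the median without was -0.10 in the shortest class, then -0.09, -0.08 and -0.06 in the longest, where 29.5% of 3′ UTRs held it against 1.95% of the shortest. The subtraction left a trend with 3′ UTR length, from -0.02 to 0.03 in genes without the heptamer, and the subtracted values within the 4 classes differed by -0.10, -0.07, -0.05 and -0.04. The 150 genes with G before the heptamer and A after it, as in NUDT21, had a median of -0.10, and an interval below 1 was found for 40.0% of them. This pair of bases was set after the ratios were seen. Among genes with 1 copy, medians by the base before it ran from -0.08 for G to -0.03 for C. By the base after it they ran from -0.08 for T to -0.05 for G. A copy in the coding sequence with none in the 3′ UTR went with a median of -0.03 (790 genes).

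The ratios to the control share libraries with the ratio between the hairpins, so they are given side by side and not as separate evidence. With classes subtracted, genes with the heptamer differed from those without by -0.03 for Knockdown2 over Knockdown1, by -0.01 for Knockdown2 over the control and by 0.02 for Knockdown1 over the control. From the shortest to the longest class of 3′ UTRs the difference was -0.13, -0.12, -0.10 and -0.07 for Knockdown2 over the control, and -0.02 in every class for Knockdown1 over the control.

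**Figure D3:**
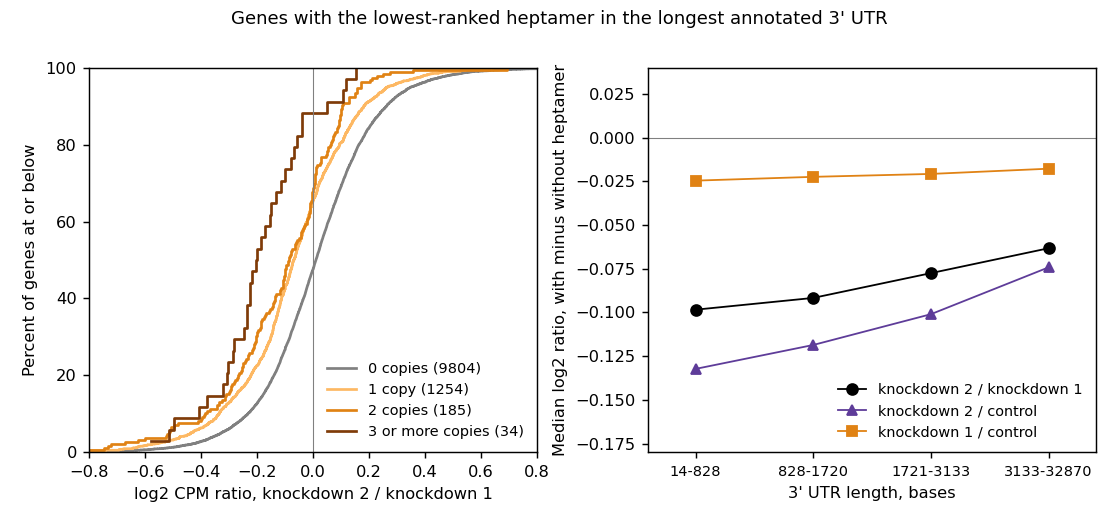
Left, the percent of genes at or below each log2 CPM ratio of Knockdown2 to Knockdown1, by copies of TGGTAGA in the longest annotated 3′ UTR; the curves for genes with copies lie left of that for 0 copies. Right, the median log2 ratio of genes with the heptamer minus that of genes without it, for the 3 pairs of libraries. The genes are split into 4 classes of 3′ UTR length in bases, and no class medians are subtracted. Knockdown1 over the control stays near -0.02.

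GC content of the longest annotated transcript of each gene went with the ratio. Over 10 classes of equal size, the median log2 ratio climbed from -0.10 in the class with a median of 36.9% GC to 0.14 in the class with 63.8%. The lowest class held 0 higher and 21 lower genes, the highest 30 and 6. Transcript length showed far less, with medians from 0.01 in the shortest class to -0.02 in the longest. Nuclear chromosomes ran from -0.06 for chromosome 13, with a median GC content of 42.1%, to 0.08 for chromosome 22, with 56.0%. The mitochondrial genome lay lower, at -0.14 with 43.1%. The mean log2 ratios of 20 classes of transcript length and then of 20 classes of GC content were subtracted as an alternative. That took away the relation to GC content but left a reversed one to length, with medians from -0.03 in the shortest class to 0.05 in the longest. With these class means subtracted, 112 genes were higher and 132 lower, and the medians of those chromosomes were -0.01, 0.02 and -0.08. The part of GC content in the gene lists was not tested beyond that, and the values with both sets of class means subtracted stand beside the lists that it moves.

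Among the gene lists, those for epithelial state, lipid synthesis and TGF-beta signalling had the largest shares of genes with an interval above 1, at 66.7%, 59.4% and 47.1%. Of 24 measured epithelial genes, 16 had an interval above 1 and 1 below, with a median log2 ratio of 0.19 (0.14 with the class means subtracted). CDH1, the adhesion molecule E-cadherin, had 2384 counts in the control, 2072 in Knockdown1 and 2940 in Knockdown2, a ratio of 1.32 (1.25 to 1.40). KRT80, a keratin, had 4591, 4856 and 7351, a ratio of 1.41 (1.36 to 1.47), while KRT8 had 16068, 17914 and 19056, a ratio of 0.993 (0.973 to 1.01). No epithelial gene reached 1.5-fold. Mesenchymal and matrix genes were mixed, with 10 of 26 higher, 6 lower and a median of 0.07. Among them SNAI1, a repressor of E-cadherin, had 66, 53 and 88 counts (ratio 1.55, 1.09 to 2.22), and LOXL2, a lysyl oxidase of the matrix, had 2556, 2200 and 3409 (1.45, 1.37 to 1.53), with the control between in both.

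Of 32 genes of cholesterol and fatty acid synthesis, 19 were higher at any fold and 1 lower, with a median of 0.14 (0.08 with the class means subtracted). MVK, mevalonate kinase, had 689 counts in the control, 634 in Knockdown1 and 955 in Knockdown2, a ratio of 1.41 (1.27 to 1.56). LSS, which closes the sterol ring as lanosterol synthase, had 2448, 2451 and 3435, a ratio of 1.31 (1.24 to 1.38). For both the control was at or near the level of Knockdown1. For SCD, the stearoyl-CoA desaturase, with 24975, 21044 and 24879 counts and a ratio of 1.10 (1.08 to 1.12), the CPM of the control was above both (1695, 1428 and 1576). Of 17 TGF-beta genes, 8 were higher and 1 lower, with a median of 0.15 (0.14). Besides TGFB3, TGFB1 had 1528, 1606 and 2108 counts, a ratio of 1.23 (1.15 to 1.31), and TGFBR2, the type II receptor, 3841, 3709 and 4402, a ratio of 1.11 (1.06 to 1.16).

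Smaller shares were higher in the next lists. Of 26 lysosomal genes, 11 were higher and 4 lower (median 0.08). TFEB, a transcription factor that drives lysosomal genes, had 119 counts in the control, 81 in Knockdown1 and 163 in Knockdown2, a ratio of 1.88 (1.43 to 2.48). Of 28 genes of glycolysis and hypoxia, 12 were higher and 4 lower (median 0.08), with PKM, pyruvate kinase, at 54097, 56939 and 65743 (1.08, 1.07 to 1.09). Of 17 endoplasmic reticulum chaperone genes 6 were higher and 1, the stress regulator XBP1, lower (median 0.08). Of 20 antigen presentation genes 6 were higher and 2 lower (median 0.09), of 35 autophagy genes 9 and 5 (median 0.01), and of 17 p53 targets 5 and 3 (median 0.04). CDKN1A, the cell cycle inhibitor p21, was the best counted of the higher p53 targets, with 867, 893 and 1378 counts and a ratio of 1.44 (1.32 to 1.57). Immediate early genes had 7 of 19 higher and 2 lower with a median of 0.11, which became -0.00 with the class means subtracted.

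Of 14 genes of the RNA interference machinery, through which a hairpin works, 4 (28.6%) were higher at any fold and 1 lower, with a median of 0.06. TNRC6C, a partner of Argonaute in silencing, had 338, 289 and 447 counts, a ratio of 1.44 (1.24 to 1.68). AGO2, the slicing Argonaute, had 2821 counts in the control, 2576 in Knockdown1 and 3257 in Knockdown2, a ratio of 1.18 (1.12 to 1.24), and DICER1 had 2989, 2901 and 3502, a ratio of 1.13 (1.07 to 1.18). DROSHA had 2671, 2797 and 3079, a ratio of 1.03 (0.976 to 1.08). Interferon response genes, which long double-stranded RNA can induce, had 4 of 29 higher, 4 lower and a median of 0.09, and a further 16 were below the count minimum. ISG20, an interferon-induced exonuclease, was the only one past 1.5-fold, with 182, 137 and 227 counts and a ratio of 1.55 (1.25 to 1.93). Of 16 cytokine and chemokine genes of the NF-kB list, 5 were higher and 2 lower, with a median of 0.02 (-0.06 with the class means subtracted). IL6 had 64, 40 and 71 counts, a ratio of 1.66 (1.11 to 2.51), opposite in direction to CXCL8.

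Of the 7 measured members of the B7 family and PD-L1 partners, NECTIN2 and PVR, both ligands of TIGIT, were higher and CMTM4 lower. PVR had 2967 counts in the control, 2986 in Knockdown1 and 3972 in Knockdown2, a ratio of 1.24 (1.18 to 1.30), and NECTIN2 1152, 1168 and 1502, a ratio of 1.20 (1.11 to 1.30). CMTM6, which keeps PD-L1 at the cell surface, had 1033, 894 and 872, a ratio of 0.911 (0.829 to 1.00). The median of this list was -0.01.

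Lower genes outnumbered higher ones in the lists of DNA replication, mitosis and ribosomal proteins, among others. Of 40 DNA replication genes, 16 had an interval below 1 and 3 above, with a median of -0.09 (-0.08 with the class means subtracted). RFC5, a clamp loader subunit, had 687 counts in the control, 757 in Knockdown1 and 581 in Knockdown2, a ratio of 0.717 (0.642 to 0.799), and MCM4, of the replicative helicase, had 6868, 7138 and 6945, a ratio of 0.908 (0.879 to 0.939). Of 32 mitotic genes, 16 were lower and 2 higher, with a median of -0.10 that became -0.03 with the class means subtracted. TPX2, a spindle assembly factor, had 5511, 5342 and 4695, a ratio of 0.821 (0.789 to 0.854). MKI67, the proliferation marker, was level at 16267, 15378 and 16675, a ratio of 1.01 (0.990 to 1.03), and CENPA, the centromeric histone, was higher at 521, 531 and 711, a ratio of 1.25 (1.12 to 1.40). No gene of either list reached 1.5-fold.

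Of 78 cytosolic ribosomal protein genes, 42 were lower and 7 higher, within log2 ratios of -0.25 to 0.16 and with a median of -0.07 (-0.08). RPL4 had 20539 counts in the control, 21674 in Knockdown1 and 21785 in Knockdown2, a ratio of 0.938 (0.921 to 0.956), and RPS2 had 14985, 19005 and 21228, a ratio of 1.04 (1.02 to 1.06). Of 15 mitochondrially encoded genes, 13 were lower and 1 higher, with a median of -0.13 (-0.07). MT-CO1, a core subunit of cytochrome c oxidase, had 178606, 159293 and 150623 counts, a ratio of 0.883 (0.877 to 0.889), so both libraries labelled as knockdowns were below the control. Nuclear genes of oxidative phosphorylation had no such tilt: 11 of 72 were higher and 12 lower, with a median of -0.01. ATP5ME, a small ATP synthase subunit, was past 1.5-fold with 197, 206 and 144 counts (ratio 0.653, 0.524 to 0.811).

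Of 29 genes of ATF4 and amino acid stress, 11 were lower and 2 higher, with a median of -0.06 (-0.09). SLC7A11, the cystine transporter, had 2702 counts in the control, 2099 in Knockdown1 and 1505 in Knockdown2, a ratio of 0.669 (0.626 to 0.716), just short of 1.5-fold. PSAT1, of serine synthesis, had 7309, 6739 and 5724, a ratio of 0.793 (0.765 to 0.822). In both the levels fell in the order control, Knockdown1, Knockdown2. The list of NRF2 and glutathione genes, which also holds SLC7A11, had 8 of 24 higher and 6 lower, with a median of -0.01. Of 54 splicing factors, 22 were lower and 4 higher, with a median of -0.06 that became 0.01 with the class means subtracted. PTBP3, a paralogue of the splicing repressor PTBP1, had 6097, 5048 and 3694 counts, a ratio of 0.683 (0.655 to 0.713). PTBP3 and SLC7A11 each held 1 copy of TGGTAGA in the 3′ UTR, and PSAT1 held none. Genes that were not lower held 1 copy too, among them CKB, SCD and EGFR (ratios 1.31, 1.10 and 1.03).

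Of 19 genes of EGFR signalling and MAPK feedback, 7 were lower and 2 higher, with a median of -0.08 (-0.08). PHLDA1 had 3610 counts in the control, 3255 in Knockdown1 and 2464 in Knockdown2, a ratio of 0.707 (0.670 to 0.745), and DUSP5, a phosphatase of ERK, had 852, 948 and 752, a ratio of 0.741 (0.672 to 0.816). EGFR had 9098, 7721 and 8524, a ratio of 1.03 (0.999 to 1.06). Of 22 YAP and TEAD genes, 3 were higher and 6 lower, with a median of -0.01. Apart from TEAD1, CTGF, a matricellular target, had 474, 482 and 370, a ratio of 0.717 (0.624 to 0.822), and FJX1 1631, 1847 and 2431, a ratio of 1.23 (1.16 to 1.31), so these differed in direction.

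Of 358 ZNF zinc finger genes, 61 were lower at any fold and 22 higher, with 12 and 3 past 1.5-fold and a median of -0.09 (-0.06 with the class means subtracted). Their share of lower genes, 17.0%, was near that of all genes, and their share of higher genes was 6.15%. The cytosolic ribosomal protein genes had 53.8% lower at a median of -0.07, so these shares do not rank lists by size of difference. ZNF205, past 1.5-fold on the higher side, had 124 counts in the control, 130 in Knockdown1 and 227 in Knockdown2, a ratio of 1.63 (1.31 to 2.04). Of the short lists, heat shock had 7 of 18 lower and 2 higher (median -0.05), snoRNA host genes 7 of 20 and 0 (-0.08), metallothioneins 2 of 4 and 0 (-0.17), proline and arginine metabolism 3 of 9 and 2 (-0.01) and nuclear retained noncoding RNAs 3 of 6 and 2 (-0.09, but 0.04 with the class means subtracted). The proteasome, with 4 of 32 lower and 6 higher, and eIF3, with 3 of 14 and 2, had medians of -0.00 and 0.00. In OAT, the ornithine aminotransferase of the proline list, there were 1983, 1883 and 1522 counts, a ratio of 0.755 (0.705 to 0.808).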

How the data were processed

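The authors deposited read counts per gene, with no normalization, and FPKM per gene, 1 file of each for every library of DU145 cells. Per the study's methods, messenger RNA was selected with oligo(dT) beads, reverse transcribed with random hexamers and amplified by PCR. The submitters' processing notes name Bowtie2 2.0.6, TopHat2 2.0.9, Cufflinks 2.1.1 and Cuffdiff 2.1.1. The counting tool, its strand setting and the genome build are not given in the sources used here, but all 58735 gene identifiers and positions equal those of GENCODE 29 (GRCh38). The labels name DMEM as the medium and the methods EMEM, the series text names another cell line (BCPAP), and 1 count column, that of the control, is headed RBM45 in place of DU145. Counts were scaled to CPM by the total of each library, from 14733088 to 15786457 counts. Each ratio of 2 counts has an exact 95% conditional binomial (Clopper-Pearson) interval, which covers counting error only. With 1 library per group no test was made. The class means subtracted are those of 20 classes of transcript length and then 20 of GC content, in 1 pass. The heptamer scan used class medians of 3′ UTR length and GC content instead. Genes were named by rule: CD274, the 15 highest and 15 lowest protein-coding genes called, the 5 highest and 5 lowest of other types, up to 6 of each list by counts or ratio, near-identical copies, and the 10 farthest from equality relative to their interval. The comparison, the 33 lists and the heptamer scan were chosen with earlier results of these data known. Alternatives were TMM (edgeR 4.0.16), DESeq2 1.42.0 size factors, other totals, minimums and folds, and the deposited FPKM with a pseudocount of 0.1. Scripts used Python 3.11.15, scipy 1.17.1 and R 4.3.3, and were tested on simulated data.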

Additional observations from a re-analysis of the deposited data

How the results depend on the processing

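The counts of genes at least 1.5-fold higher and lower depended on the count minimum and the fold. They were 136 and 133 with at least 100 counts, 551 and 491 with at least 10, 695 and 598 with at least 1, 14 and 33 with at least 400, and 17 and 11 at 2-fold. With few counts a wide ratio is more easily reached. Scaling by TMM, DESeq2 size factors or the total of nuclear protein-coding genes, subtracting the length and GC class means, the deposited FPKM and leaving out genes with the heptamer, an alternative added after the data were seen, kept both counts within 1.5 times, from 112 to 135 higher and 101 to 146 lower. The 3 scalings kept every list and named gene near its value, with a change of sign at ratios near 1 for eIF3 and TNFRSF10B under TMM and the nuclear total. Subtracting the class means moved 77 of 232 named genes beyond their counting interval, and 3 of 33 lists. It changed the sign of the median of 6 lists: B7 family, NF-kB, immediate early, splicing, proteasome and nuclear retained noncoding RNAs. The difference between genes with and without TGGTAGA was -0.0295 log2 units with classes of 3′ UTR length and GC content and -0.0839 without them, which was also tried after the data were seen. No paired analysis was possible because each group has 1 library. With 1 library per hairpin, the spread between cultures, infections and libraries is unknown.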
